A study of Mus musculus with 20 samples.

Results

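The genes described here are 5 muscle genes of families known for their response to stretch: Ankrd1 and Ankrd2, which encode ankyrin repeat proteins, and Csrp1, Csrp2 and Csrp3, which encode cysteine-rich LIM domain proteins. They were picked by gene symbol, and 6 probe sets of the array carry these symbols, 2 of them for Csrp1, out of 12654 probe sets in all; 8220 genes have a probe set that names them alone. All 6 reached a scaled signal of 200 on at least 5 arrays and so were among the 7204 probe sets tested. The 5 genes were proposed with measured values of these same arrays known, so their levels and differences are given as a description, without a test.

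The 4 groups were leg muscle of mdx mice, leg muscle of control mice, and the extraocular muscle (EOM) that turns the eyeball of mdx and of control mice, all 8 weeks old, with 5 one-colour Affymetrix arrays each. In mdx mice a premature stop codon in Dmd removes full-length dystrophin, while shorter products from downstream promoters of the gene are spared. The control leg arrays were labelled as gastrocnemius and soleus and the mdx leg arrays only as leg muscle, so any difference in the muscles taken cannot be told apart from genotype, nor can anything else that goes with the control and mdx labels, which also differ in their descriptions. The labels give no strain or sex, and number the replicates without saying whether each came from its own animal, so the spread between arrays may be partly technical.

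In striated muscle the ankyrin repeat proteins of this kind bind the elastic N2A region of titin, the spring of the sarcomere, and also occur in the nucleus. Ankrd1, or CARP, is best known from heart muscle and as a target of the YAP and TEAD transcription factors, and Ankrd2, or Arpp, is enriched in slow skeletal fibres. The Csrp proteins bind alpha-actinin and zyxin through their LIM domains. Csrp3, the muscle LIM protein, sits at the Z-disc of striated muscle, while Csrp1 and Csrp2 are best known from smooth muscle and fibroblast-like cells.

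The stretches before the transcription starts of Ankrd1, Ankrd2 and Csrp3 are shown because Ankrd1 was the gene that stood higher in mdx arrays of both muscles, while Ankrd2 and Csrp3 shared an extreme leg control array. They are RefSeq sequences on build GRCm38.p6, and run from 250 bases before the start to the base before it, or for Ankrd2 to 111 bases before it, where the annotated gene begins. Ankrd1 lies at chr19:36119845-36120094 on the minus strand, Ankrd2 at chr19:42035777-42035916 on the plus strand and Csrp3 at chr7:48848052-48848301 on the minus strand. Capitals mark the M-CAT motif of TEAD factors (CATTCC, or GGAATG on the other strand) and E-boxes (CANNTG), the motif of the MyoD family.
Ankrd1: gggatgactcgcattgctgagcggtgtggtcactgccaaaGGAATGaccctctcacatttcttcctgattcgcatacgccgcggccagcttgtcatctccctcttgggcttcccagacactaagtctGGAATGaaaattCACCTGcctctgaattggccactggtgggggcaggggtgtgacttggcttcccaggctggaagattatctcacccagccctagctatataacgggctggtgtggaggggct
Ankrd2: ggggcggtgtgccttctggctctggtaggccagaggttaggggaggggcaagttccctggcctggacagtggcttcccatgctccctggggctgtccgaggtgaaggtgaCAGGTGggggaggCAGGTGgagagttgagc
Csrp3: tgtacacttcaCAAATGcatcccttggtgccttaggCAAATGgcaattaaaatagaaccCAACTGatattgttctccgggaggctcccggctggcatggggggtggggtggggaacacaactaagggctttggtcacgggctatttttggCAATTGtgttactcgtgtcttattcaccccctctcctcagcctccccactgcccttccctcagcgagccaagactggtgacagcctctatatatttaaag
In the whole 250 bases Ankrd1 held 2 M-CAT motifs, beginning at -210 and -123, and 1 E-box. No M-CAT motif was found in the windows of Ankrd2, Csrp1 or Csrp3, and 12.6% of 32851 promoters of the same length held at least 1 on either strand. The promoter sequences used held none for Csrp2, so that gene was not searched. Ankrd2 held 3 E-boxes, Csrp3 held 4 at each of its 2 annotated starts and Csrp1 held 1 at each of its 2, against 66.2% of all promoters with at least 1. The AP-1 motif (TGANTCA), the CArG box and the MEF2 box, found in 6.7%, 1.5% and 2.9% of promoters, were in none of these windows. No match says only that these letters are absent from the window.

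Signals are the deposited intensities after each array was set to the same 2% trimmed mean of 500. For differences, signals under 50 were set to 50 before log2 was taken, and where arrays of the dimmer group lay there the fold is written as at least. On each array between 47.2% and 52.0% of probe sets reached 200. Dmd read 102 to 175 in mdx and 204 to 325 in control EOM arrays, and 37.3 to 126 in mdx and 100 to 212 in control leg arrays. A stop codon does not by itself abolish the RNA that a probe set measures. The leg control arrays 1 and 4 stood apart. Array 1 had the highest summed signal of 10 slow fibre genes (95373) and array 4 the lowest (4116), against 38205 to 39595 on the other leg controls. Array 4 also read 45.2 for the slow myosin light chain Myl2, 94.9 for the limb-position gene Hoxd8 and 8892 for the salivary gland gene Bpifa2, against 8608 to 20216, 737 to 1416 and 78.1 to 828 on the other 4, so its values go against the label leg control. A low signal need not mean a low transcript on this early array design: the fast troponin gene Tnnc2, abundant in muscle, lay under 50 on all 20 arrays.

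**Figure D1:**
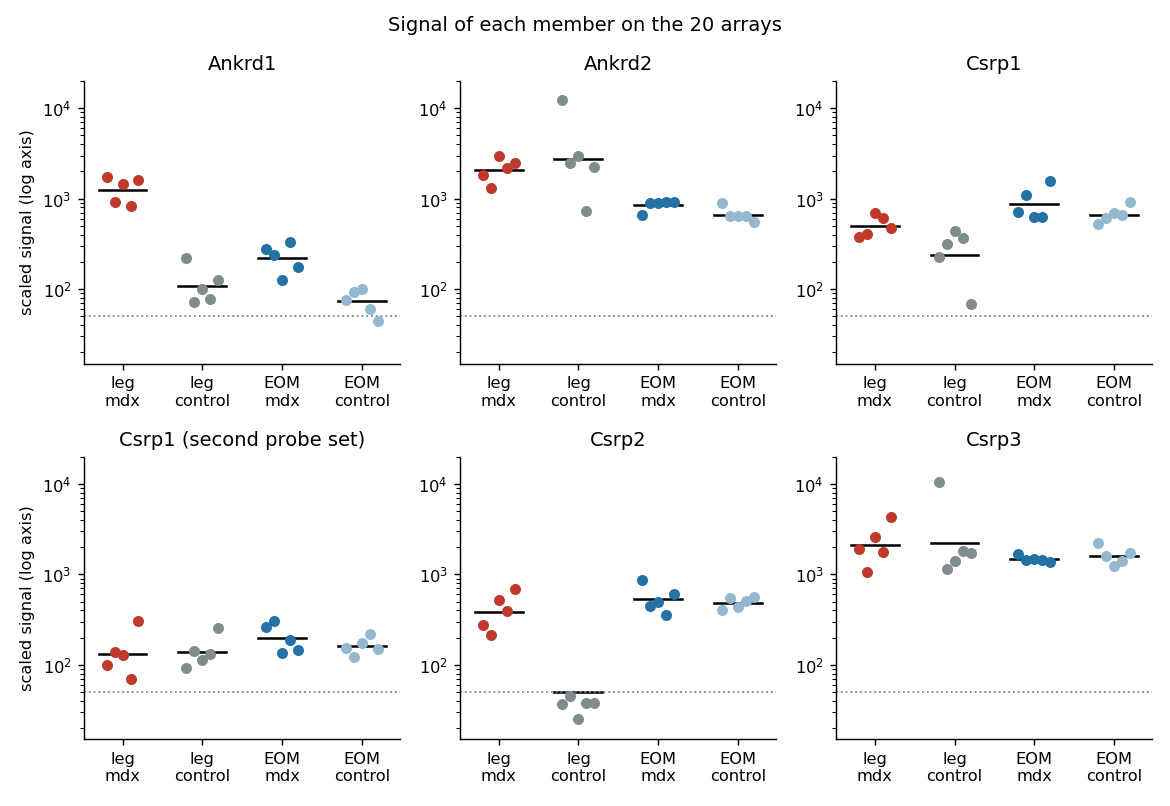
Scaled signal (log axis) of the 6 probe sets on the 20 arrays, 1 point per array, arrays 1 to 5 from left to right within a group. Black lines are means of the log2 values after the floor of 50 (dotted line). Ankrd1 was highest in leg mdx arrays (832 to 1717) and Csrp2 lay below the floor on all 5 leg control arrays.

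Ankrd1 was the member with the clearest difference between mdx and control animals, and it stood higher in mdx arrays of both muscles. In leg muscle its signals were 1717, 932, 1459, 832 and 1607 on the mdx arrays and 221, 71.4, 100.2, 77.6 and 127 on the control arrays. The lowest mdx array lay well above the highest control array, leg control 1. Ankrd1 averaged 1309 ± 402 in mdx and 119 ± 60.8 in control leg muscle (SD, n = 5 each), and the log2 difference was 3.52 (SE 0.33), or 11.5-fold. Of the 6810 probe sets with no array under 50 in either leg group, 9 had a larger increase, which places Ankrd1 at 10. The log2 difference was 3.78 without leg control 1, 3.40 without leg control 4 and 3.70 without both.

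In EOM the Ankrd1 signals were 277, 238, 128, 337 and 178 on the mdx arrays and 76.4, 92.8, 100.8, 60.1 and 44.8 on the control arrays. Again the groups did not overlap, although mdx array 3 came close to the highest control. The means were 231 ± 81.9 in mdx and 75.0 ± 23.0 in control EOM (SD, n = 5 each), a log2 difference of 1.57 (SE 0.33), or at least 2.98-fold with control array 5 under the floor. Leg muscle exceeded EOM in the size of this mdx effect by 1.95 log2 units (SE 0.46), a size that depends on the floor. The 4 groups ranked leg mdx, EOM mdx, leg control, EOM control. Only leg mdx was free of overlap with its neighbour in that order. EOM was 5.73-fold lower than leg muscle in mdx animals, with no overlap. In control animals EOM overlapped leg muscle (log2 difference -0.57, SE 0.33, and -0.32 without leg control 1, 1 of 5 EOM arrays under the floor).

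Csrp2 differed in another way: it lay under the floor in control leg muscle and between 211 and 874 in the other 3 groups. Its signals were 275, 211, 527, 391 and 681 on the mdx leg arrays and 37.4, 45.1, 25.2, 37.9 and 38.2 on the control leg arrays. All 5 controls lay under the floor of 50 and every mdx array lay above 200. The means were 417 ± 190 in mdx and 36.8 ± 7.20 in control leg muscle (SD, n = 5 each), which gives a log2 difference of at least 2.93 (SE 0.27), or at least 7.64-fold. With all leg controls set to the floor, no spread of theirs enters the SE of any Csrp2 difference. In EOM the signals were 874, 452, 495, 357 and 605 on the mdx arrays and 402, 542, 438, 510 and 567 on the control arrays. These groups overlapped widely, with means of 557 ± 198 in mdx and 492 ± 70.1 in control EOM and a log2 difference of 0.12 (SE 0.27). The mdx effect in leg muscle exceeded that in EOM by 2.81 on the log2 scale (SE 0.38), with the leg controls held at the floor. In control animals EOM was at least 9.76-fold higher than leg muscle, without overlap. In mdx animals EOM and leg muscle overlapped (log2 difference 0.47, SE 0.27).

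Csrp1 on its brighter probe set was higher in EOM than in leg muscle of control animals. Its signals were 525, 607, 691, 662 and 922 on the control EOM arrays and 228, 315, 443, 365 and 69.4 on the control leg arrays. Every EOM array lay above every leg array, and leg control 5 was far below the others. The means were 681 ± 149 in EOM and 284 ± 143 in leg muscle (SD, n = 5 each), a log2 difference of 1.48 (SE 0.37), which was 1.03 without leg control 5. On the mdx arrays Csrp1 read 711, 1100, 626, 630 and 1574 in EOM and 374, 412, 697, 615 and 475 in leg muscle. Those groups overlapped (log2 difference 0.79, SE 0.37). In leg muscle mdx overlapped control, with means of 515 ± 137 in mdx and 284 ± 143 in control arrays and a log2 difference of 1.06 (SE 0.37), which was 0.61 without leg control 5. In EOM mdx and control overlapped, with means of 928 ± 410 in mdx and 681 ± 149 in control arrays (log2 difference 0.37, SE 0.37).

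The second probe set of Csrp1, whose name marks it as shared by several transcripts, was dim and gave another picture. It ranged from 69.8 to 309 in mdx and 93.3 to 258 in control leg muscle, and from 135 to 304 in mdx and 123 to 221 in control EOM. All 4 groups overlapped, and its log2 difference between mdx and control leg muscle was -0.09 (SE 0.36). The statements on Csrp1 therefore rest on 1 of 2 probe sets.

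Ankrd2 was lower in EOM than in leg muscle and overlapped between mdx and control animals in both muscles. In mdx animals its signals were 653, 904, 886, 912 and 918 on the EOM arrays and 1823, 1309, 2977, 2181 and 2503 on the leg arrays. No EOM array reached the lowest leg array. The means were 854 ± 113 in EOM and 2158 ± 637 in leg muscle (SD, n = 5 each), and the log2 difference was -1.29 (SE 0.43). The fit shares its SE over the 4 groups, so the spread of the leg controls enters it. Without leg control 1 and 4 the SE of this difference was 0.18. In control animals the signals were 890, 645, 645, 637 and 548 in EOM and 12186, 2505, 2986, 730 and 2248 in leg muscle. Here leg array 4 lay among the EOM arrays and leg array 1 stood far above every other array. The log2 difference was -2.04 (SE 0.43) with these arrays and -1.95 (SE 0.21) without both, when the groups did not overlap. It was -1.49 without array 1 alone and -2.51 without array 4 alone. Between mdx and control leg muscle the log2 difference of Ankrd2 was -0.39 (SE 0.43). It was 0.15 without leg control 1, -0.86 without leg control 4 and -0.30 without both. Its sign turned only when leg control 1 alone was left out. In EOM the difference between mdx and control was 0.35 (SE 0.43, and 0.18 without leg control 1 and 4). The overlap there involved array 1 of each group. EOM mdx array 1 read 653, where the other mdx arrays read 886 to 918. EOM control array 1 read 890, where the other controls read 548 to 645.

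Csrp3 had no pair of groups without overlap. Its signals in leg muscle were 1896, 1075, 2585, 1784 and 4284 on the mdx arrays and 10386, 1138, 1418, 1832 and 1719 on the control arrays. Leg control 1 was again far above the rest. Csrp3 averaged 2325 ± 1219 in mdx and 3299 ± 3971 in control leg muscle (SD, n = 5 each). The log2 difference between mdx and control leg muscle was -0.08 (SE 0.42), and 0.48 without that array. In EOM the signals were 1667, 1454, 1496, 1448 and 1363 on the mdx arrays and 2219, 1590, 1250, 1421 and 1740 on the control arrays, with a log2 difference of -0.12 (SE 0.42). EOM and leg muscle of control animals differed by -0.45 on the log2 scale (SE 0.42), which became 0.10 without leg control 1. In mdx animals they differed by -0.50 (SE 0.42). The SE is shared over the 4 groups. Without leg control 1 and 4 it was 0.25 for this difference and for that between mdx and control EOM.

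**Figure D2:**
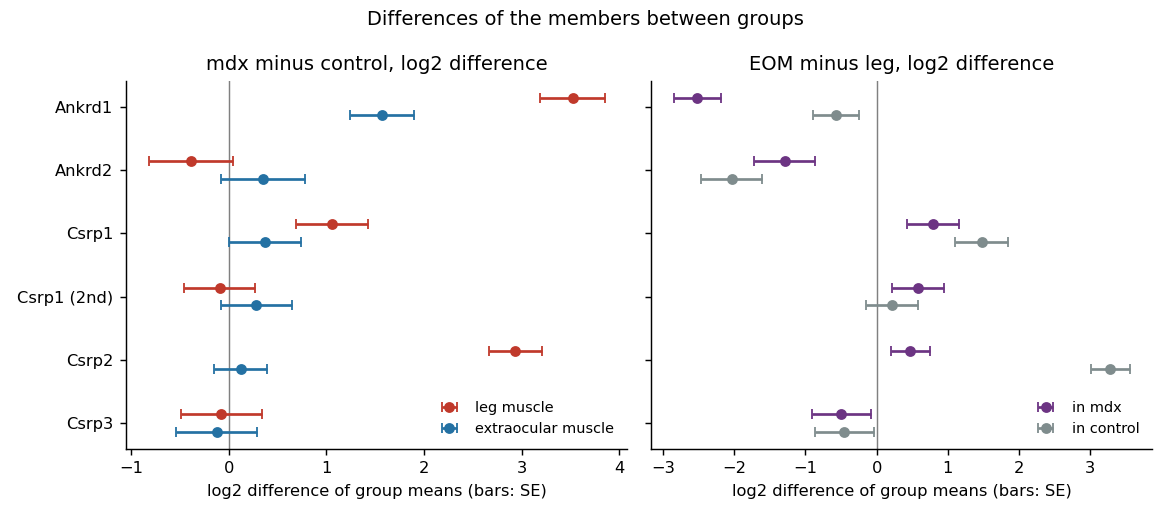
Log2 differences of the 6 probe sets, mdx minus control in each muscle (left) and EOM minus leg in each genotype (right); bars are standard errors of the shared fit. Ankrd1 (3.52) and Csrp2 (2.93, against controls at the floor) had the largest mdx effects in leg muscle, and the Csrp2 difference between the muscles was larger in control (3.29) than in mdx animals (0.47).

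Counted by their brightest probe set, 2 of the 5 genes, Ankrd1 and Csrp2, were higher on every mdx than on every control leg array, where 8.38% of all tested probe sets were. In EOM 1 of 5, Ankrd1, was, where 0.5% of tested probe sets were. Every EOM array exceeded every leg array for Csrp1 and Csrp2 in control animals (7.69% of tested probe sets), and lay below every leg array for Ankrd1 and Ankrd2 in mdx animals (7.02%). Since the genes were chosen with these values known, the counts describe the choice.

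Markers of some other cell types moved with these genes in leg muscle, and their part in the differences of Ankrd1 and Csrp2 was not tested. The summed signal of 12 macrophage genes was 40283 to 51929 in mdx and 4409 to 6301 in control leg muscle, and all 12 rose (limma adjusted p under 5%). The sum of 8 fibroblast genes was 45376 to 53578 in mdx and 23790 to 28101 in control leg muscle, with 7 of 8 higher. That of 13 genes of regenerating fibres was 24876 to 36882 in mdx and 19205 to 21959 in control leg muscle, with 6 of 13 higher and 0 lower. The developmental myosin genes Myh3 and Myh8 were not among the 6 (log2 differences -0.83 and -0.17). Nor was Actc1 on its brighter probe set, a large part of that sum (mean 13155 in mdx and 11531 in control leg muscle). The other tested probe set of Actc1 did pass as higher. Smooth muscle genes overlapped, at 6428 to 8486 in mdx and 5941 to 8249 in control leg muscle, with 1 of 7 higher. Of 7 endothelial genes 0 passed in either direction in leg muscle. In EOM, 1 of 12 macrophage genes rose, 0 of 8 fibroblast genes passed in either direction, and the macrophage sum was 7663 to 14654 in mdx and 7051 to 10235 in control arrays, with the macrophage marker Cd53 under 50 on every control EOM array. Between the muscles of control animals, where Csrp1 and Csrp2 stood higher in EOM, 5 of 7 smooth muscle and 5 of 8 fibroblast genes were higher too. So were 3 of 13 genes of regenerating fibres. The smooth muscle sum was 9231 to 12951 in EOM and 5941 to 8249 in leg muscle of control animals, and the fibroblast sum 25829 to 44162 in EOM and 23790 to 28101 in leg muscle. Between the muscles of mdx animals, where Ankrd1 and Ankrd2 stood lower in EOM, all 12 macrophage genes were lower too (median log2 difference -2.09), and their sum was 7663 to 14654 in EOM and 40283 to 51929 in leg muscle. In the same comparison 3 of 3 tested epithelium and gland genes, 5 of 7 smooth muscle genes and 4 of 7 endothelial genes were higher in EOM. Of 8 fibroblast genes 2 were lower and 1 higher. Of the 13 genes of regenerating fibres 4 were higher and 5 lower there. The part of these cell types in the Ankrd1 and Ankrd2 differences was not tested. In whole muscle, more cells of a type and more RNA per cell cannot be told apart.

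The slow fibre genes went with Ankrd2 and Csrp3 on some arrays and not on others. Leg control 1, the array with the highest slow fibre sum, had the highest Ankrd2 and Csrp3 of all 20 arrays. It also had the highest summed signal of 10 fast fibre genes, at 140191, where the next highest array of the 20 read 110846 and the other leg controls 58502 to 87913. Leg control 4, with the lowest sum, had the lowest Ankrd2 of the 10 leg arrays (730), but a Csrp3 of 1832, second only to array 1 among the leg controls. Among the mdx leg arrays, arrays 3 and 5 had the highest slow fibre sums (31588 and 40239, others 22008 to 29815) and also the highest Ankrd2, Csrp3 and Csrp2. The same arrays had the highest macrophage sums (51902 and 51929, others 40283 to 48879). Array 2 had the lowest of these 3 genes, while array 1 had the lowest slow fibre sum (22008, against 22865 on array 2). The EOM arrays had slow fibre sums of 36721 to 55917 in mdx and 34830 to 48025 in control animals, with the lower Ankrd2 signals given above. Like sums do not mean like slow fibre genes. For EOM minus leg muscle of control animals the log2 difference was 1.80 for Tnnc1 and -1.76 for Myl3, and neither passed in limma. Of the 10 slow fibre genes 2 passed as higher and 0 as lower in EOM of control animals. In mdx animals 1 was higher and 0 lower. The part of slow fibres in the Ankrd2 difference was not tested.

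**Figure D3:**
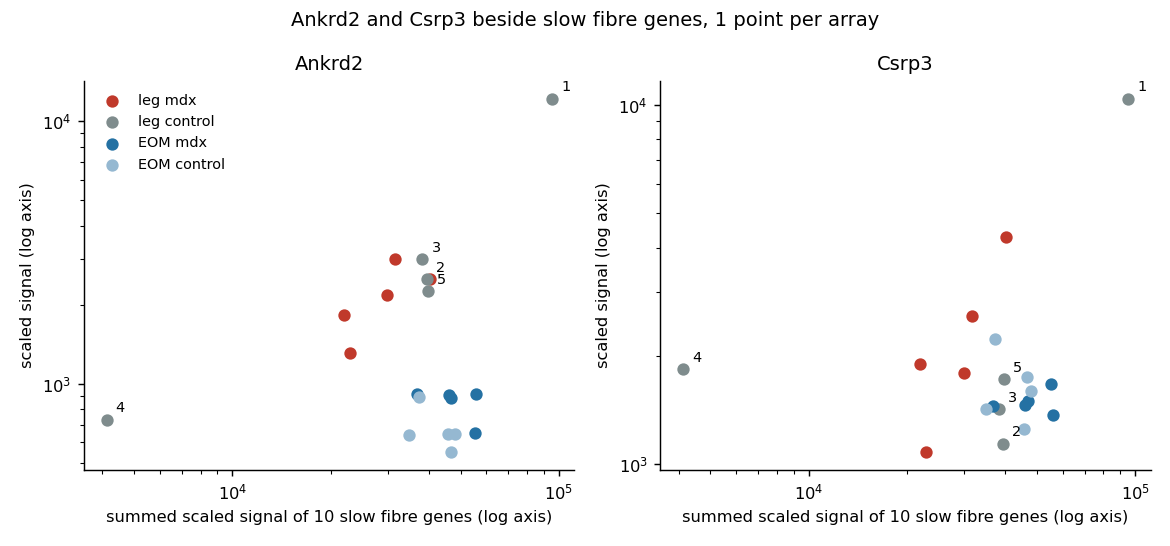
Ankrd2 (left) and Csrp3 (right) against the summed signal of 10 slow fibre genes, 1 point per array, both axes log; the numbers are the leg control arrays. Leg control 1 stands highest on both axes in both panels. EOM arrays lie at Ankrd2 signals of 548 to 918, with slow fibre sums that overlap those of leg arrays.

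The genes whose pattern over the 20 arrays was nearest to each member are given as a description. Each probe set's own mean log2 signal was removed, and the distance is the root mean square difference of the log2 values over the 20 arrays, which share the 4 groups. Nearest to Ankrd1 were Mpeg1 (distance 0.68) and Laptm5 (0.73), which are both on the macrophage list, and the GTPase gene Rrad (0.76), where the median of 6261 probe sets was 1.70. Rrad read 2366 ± 855 in mdx and 453 ± 35.2 in control leg muscle. Nearest to Csrp2 were the acetylcholine receptor gene Chrna1 (0.54), the metalloproteinase gene Mmp3 (0.58) and Nt5dc2 (0.61), with a median of 1.51. Nt5dc2, like Csrp2, stayed under 50 on all leg controls (29.7 to 48.1) and read 217 to 422 on mdx leg arrays.

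For Ankrd2 the nearest were Hoxc9 (0.55), Pes1 (0.64) and Park7 (0.67), all lowest on array 4 among the leg controls. Csrp3 was in place 54 of 6261 (0.82). For Csrp3 they were Eif4ebp1 (0.44), an inhibitor of translation, Xirp1 (0.47), an actin-binding protein of the myotendinous junction and intercalated disc, and Pnrc1 (0.52). All 3 were highest on array 1 among the leg controls, where Xirp1 read 6502. For Csrp1 they were Plat (0.41), Cdkn2d (0.48) and Arhgef25 (0.48), all lowest on leg control 5.

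Genes of 4 lists were counted beside the members: titin and Z-disc genes, other LIM genes, SRF and TEAD pathway genes, and stretch and load genes. The lists are wider than stretch sensing, and the LIM genes share a protein domain. On the array were 85 listed genes and 65 were tested, each by its brightest tested probe set and none of them a member. Of these, 1 gene, Pxn, is on more than 1 list. In leg muscle 16 of 65 rose (24.6%, against 10.7% of all tested probe sets) and 4 fell (7.15% of all tested fell), by limma at an adjusted p under 5%. Their median log2 difference was 0.08, and that of all tested probe sets -0.06. In EOM none of 65 passed in limma, 3 had an unadjusted p under 0.05, and of all tested probe sets 0.0416% rose and 0.0416% fell. The lists were chosen with earlier results of these data known, so their counts here and below partly describe that choice. They also count genes by 1 probe set each, while the shares of all tested count single probe sets.

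The rises in leg muscle lay in 3 of the lists. Of 19 genes of stretch and load response 7 rose and 1 fell. Rrad, a GTPase that restrains calcium channels, was 4.94-fold higher in mdx leg muscle (limma adjusted p = 3.59e-08), and Chrna1 was 4.32-fold higher (1161 ± 80.8 in mdx against 274 ± 63.7 in control arrays, limma adjusted p = 1.12e-08). Chrna1 is also on the list of regenerating fibres above. Mstn, the growth inhibitor myostatin, was the gene that fell, at 617 ± 166 in mdx and 1505 ± 391 in control leg muscle (log2 difference -1.30, limma adjusted p = 0.000115). Of 17 SRF and TEAD pathway genes 5 rose and 2 fell. Among them the YAP and TEAD target Ccn2 was 2.30-fold higher (812 ± 177 in mdx against 364 ± 134 in control arrays, limma adjusted p = 0.000355), Tpm4, a cytoskeletal tropomyosin, was 2.21-fold higher (limma adjusted p = 3.86e-05) and the immediate early gene Junb at least 4.12-fold higher (limma adjusted p = 0.000722).

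Of 20 other LIM genes 4 rose in leg muscle and 0 fell. Crip1, a small LIM protein, read 4234 ± 1045 in mdx and 1656 ± 152 in control arrays (2.50-fold, limma adjusted p = 7.84e-06). Lmo2, a LIM cofactor of blood and endothelial cells, was 2.15-fold higher (limma adjusted p = 8.04e-05), and Lima1, which bundles actin, read 784 ± 224 in mdx and 282 ± 164 in control arrays, 1 control array under the floor (log2 difference 1.75, limma adjusted p = 0.00664). Of 10 titin and Z-disc genes 0 rose and 1 fell: Capn3, the calpain that binds titin N2A, read 2719 ± 768 in mdx and 4394 ± 986 in control leg arrays (1.65-fold lower, limma adjusted p = 0.0142), a call that ended without leg control 1 and 4.

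**Figure D4:**
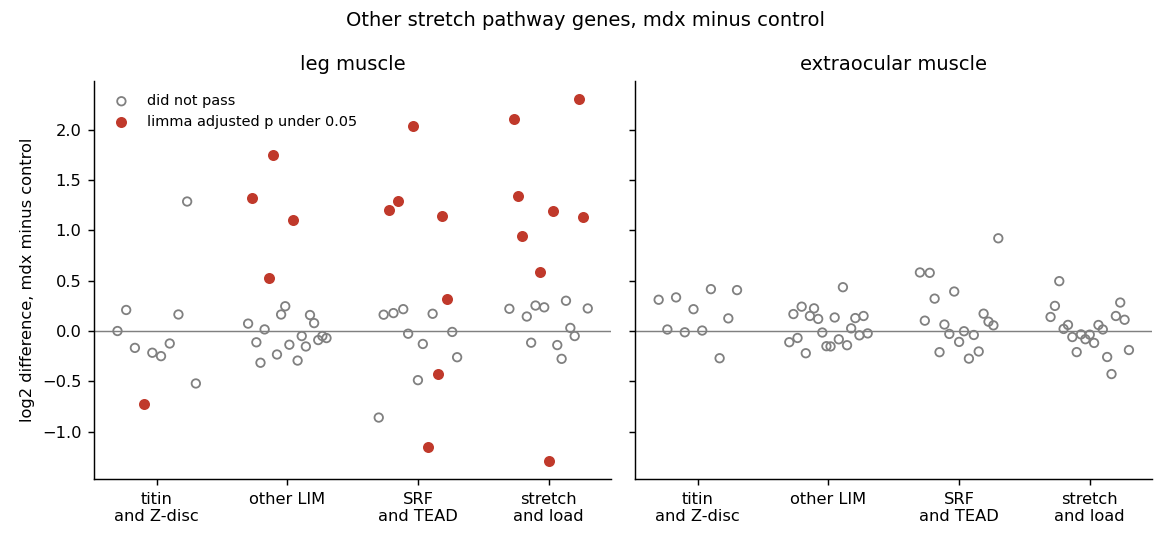
Log2 difference, mdx minus control, of the tested genes of the 4 lists in leg muscle (left) and EOM (right); filled points had a limma adjusted p under 0.05. In leg muscle 20 of 65 genes passed, 1 of them a titin or Z-disc gene, and in EOM none did.

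The difference of the mdx effect between the muscles passed for 7 of the 65 genes, with 5 more positive in leg muscle (4.93% of all tested probe sets were) and 2 more negative (1.29%). The effect was more positive in leg for Rrad (2.02 log2 units, limma adjusted p = 0.000118), Chrna1 (1.86, limma adjusted p = 4.08e-05), Crip1 (1.16, limma adjusted p = 0.00532), Tpm4 (0.97, limma adjusted p = 0.0165) and Lmo2 (0.97, limma adjusted p = 0.0199). The Lmo2 call ended when the probe sets of a gene were averaged. The effect was more negative in leg for Mstn (-1.26, limma adjusted p = 0.0117) and for the cochaperone gene Bag3 (-0.50, limma adjusted p = 0.0404), which passed in 5 of 20 fits that each dropped an array: it was lost without any of leg mdx arrays 1 to 4, leg controls 1, 3, 4 and 5, EOM mdx arrays 2, 3 and 5, or EOM controls 1, 2, 4 and 5.

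Between the muscles, 14 of the 65 genes were higher and 10 lower in EOM than in leg muscle of control animals (10.3% and 7.41% of all tested probe sets), and 8 were higher and 10 lower in mdx animals (9.24% and 8.83%). Without EOM control 5 the count for control animals was 15 in place of 24. Of 10 titin and Z-disc genes, 3 were lower and 0 higher in control animals, and 2 lower and 1 higher in mdx animals. Myoz1, a Z-disc protein of fast fibres, read 5056 ± 1206 in EOM and 11530 ± 2421 in leg muscle of control animals (2.29-fold lower, limma adjusted p = 0.000257). Capn3 was 1.95-fold lower in EOM of control animals (limma adjusted p = 0.00177), and so was Xirp1 at 1.65-fold (limma adjusted p = 0.0367, a call that ended without either leg control 1 or 4, or any of EOM controls 2 to 5). In mdx animals Bag3 was 1.41-fold higher, and Actn3 and Myoz1 were 1.77-fold and 1.57-fold lower in EOM (limma adjusted p = 0.00147, 0.0111 and 0.0303). The Myoz1 call there was lost without any of leg mdx arrays 1, 2 and 5 or EOM mdx arrays 2, 3 and 4.

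Of the 20 other LIM genes, 6 were higher and 3 lower in EOM of control animals. Pdlim7, a PDZ and LIM protein of the Z-disc, was 2.93-fold lower in EOM on its brighter probe set (1697 ± 350 in EOM against 4952 ± 820 in leg muscle, limma adjusted p = 8.2e-07), while its other probe set had the opposite sign. Lmo2 and Ablim1 were 2.81-fold and 2.51-fold higher (limma adjusted p = 2.02e-06 and 0.000385). In mdx animals 3 were higher and 4 lower, among them Pdlim7 and Pdlim3, which were 2.84-fold and 2.06-fold lower, and Ablim1, which was 2.20-fold higher (limma adjusted p = 1.17e-06, 0.000376 and 0.00157).

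Of the 17 SRF and TEAD genes 4 were higher and 2 lower in EOM of control animals: Ccn2 was 2.14-fold and Tpm4 1.66-fold higher, and Vcl, the gene of vinculin, 1.33-fold lower (limma adjusted p = 0.000942, 0.00411 and 0.0102). In mdx animals 2 were higher and 1 lower, with Vcl 1.56-fold lower, Myl9 1.54-fold higher and the skeletal actin gene Acta1 6.73-fold higher in EOM (limma adjusted p = 0.000205, 0.0109 and 0.0295). The Acta1 signal varied widely in leg muscle (12074 ± 2828 in EOM against 3733 ± 4349 in leg muscle of mdx animals), and its call was lost without either of leg mdx arrays 3 and 4 or any of EOM mdx arrays 1, 2, 3 and 5.

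Of the 19 stretch and load genes 4 were higher and 2 lower in EOM of control animals, and 2 were higher and 3 lower in mdx animals. In control animals Chrna1 was 6.03-fold higher in EOM (1635 ± 300 in EOM against 274 ± 63.7 in leg muscle, limma adjusted p = 3.83e-10), Fst, which encodes the myostatin antagonist follistatin, at least 4.34-fold (limma adjusted p = 0.000112) and Itga7, a laminin receptor of muscle, 1.57-fold (limma adjusted p = 0.00858, a call that ended without leg control 1 and 4). In mdx animals Rrad was 4.99-fold lower in EOM (456 ± 92.3 in EOM against 2366 ± 855 in leg muscle, limma adjusted p = 5.32e-08), Mybph 3.58-fold lower (limma adjusted p = 0.000397) and Chrna1 1.66-fold higher (limma adjusted p = 0.00421).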

How the data were processed

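The authors deposited 1 linear intensity per probe set and array, never negative, from 0.4 to 95476.8, with a 2% trimmed mean of about 1500.1 on each of the 20 arrays, so the values had been scaled. The software and the genome build are not given in the sources used here. No arrays were identical. Each array was rescaled to a 2% trimmed mean of 500 over 12588 non-control probe sets. Testing was limited to probe sets at 200 or more on 5 or more arrays. The platform annotation names 1 gene for 10298 probe sets and several for 363, and does not list 1993. No symbol changed through the RefSeq gene table (GRCm38.p6).

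One limma model (version 3.58.1, R 4.3.3; lmFit, then eBayes with trend = TRUE) took in the 20 arrays in their 4 groups, leaving 16 residual degrees of freedom, with no covariate, 5 contrasts and Benjamini-Hochberg adjustment within each at 5%. The fit was tested on simulated data. The members, the lists and the alternatives were chosen with earlier results of these data known. Named by rule were all members, up to 3 passing genes with the smallest adjusted p per list and contrast, and the 3 nearest probe sets per member. The labels do not say that replicate numbers pair the arrays, and the main fit did not pair them. For arrays of the same number, correlations of deviations were low. They ran from 0.0124 to 0.18 between the leg groups, from 0.0194 to 0.228 between the EOM groups, and from -0.084 to 0.0815 between muscles. Alternatives were other scalings, floors of 20 and 100, a pseudocount of 50, other filters, no trend, a fit on the compared groups alone, a replicate block, averaging of a gene's probe sets, and leaving out arrays.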

Additional observations from a re-analysis of the deposited data

Results flagged for a closer look

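In 5 of the 24 sets of 5 arrays looked at for the 6 member probe sets, and in 8 of 92 for the named genes of the lists, 1 array lay far from the other 4 (a gap over 0.71 of the range). The gap was taken on scaled signals and was not repeated on the log2 scale. A rate of about 1 of 20 sets by chance holds only for independent values with a normal spread. The sets share the same arrays and signals can be skewed, so these counts cannot be set against that rate. Leg control 1 read 12186 for Ankrd2, where the next array read 2986, and 10386 for Csrp3, where the next read 1832. EOM mdx array 1 read 653 for Ankrd2 (others 886 to 918) and EOM control array 1 read 890 (others 548 to 645). Leg mdx array 5 read 309 on the second Csrp1 probe set (others 69.8 to 139). In the lists, leg mdx array 5 read 697 for Junb, leg mdx array 3 read 1020 for Chrna1, leg mdx array 1 read 3337 for Pdlim3, and leg control 4 read 344 for Mybph, where the others read 1686 to 2028. EOM control array 5 read 2171 for Chrna1 and 1305 for Mstn, and EOM mdx array 5 read 312 for Fst and 2802 for Xirp1.

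The mdx effect differed between leg muscle and EOM by a limma test of the difference for Crip1 (1.16 log2 units more positive in leg), Lmo2 (0.97), Tpm4 (0.97), Chrna1 (1.86) and Rrad (2.02), and was more negative in leg for Mstn (-1.26) and Bag3 (-0.50). The Lmo2 call was lost when the probe sets of a gene were averaged. Bag3 passed in only 5 of 20 fits that each dropped an array, and was also lost without the intensity trend and without leg control 1 and 4.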

How the results depend on the processing

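Each member's log2 difference and each count over the lists was recomputed under 12 alternatives and without each of the 20 arrays. The Csrp2 differences depend on the floor, since all 5 leg controls lie under 50. For mdx minus control leg muscle the value was 1.93 with a floor of 100, and 2.33 with a pseudocount of 50. For EOM minus leg muscle in control animals it was 3.755 with a floor of 20, 2.29 with a floor of 100 and 2.64 with the pseudocount. For the difference of mdx effects it was 3.28, 1.81 and 2.22 in that order. Every other member value moved by less than 1 SD between arrays, with no reversal where groups did not overlap. That SD was taken with all arrays in, so an outlying array such as leg control 1 widens its own limit. The Csrp3 difference between mdx and control leg muscle stayed within it, at -0.08 with all arrays and 0.58 without leg control 1 and 4. Among overlapping groups the signs of Ankrd2, Csrp3, the second Csrp1 probe set and Csrp2 in EOM turned in some fits. The Csrp2 difference in EOM was -0.06 without EOM mdx array 1. The mean of both Csrp1 probe sets gave 0.48 for mdx minus control leg muscle and 0.85 for EOM minus leg muscle of control animals. The count of list genes that passed between EOM and leg muscle of control animals was 24, and 15 without the filter; leaving out 1 array gave 15 to 24, the lowest without EOM control 5. The other 4 counts stayed within 1.5 times. With a replicate block the counts were 18 in leg muscle, 0 in EOM, 25 and 18 between the muscles of control and mdx animals, and 9 for the difference of effects; 3 of 5 leg mdx arrays correlated best with the control array of their own number, which is a hint from the data and not from the labels. Over all tested probe sets the EOM count was 6; it was 3 without the filter, 11 with a floor of 100 and 3 to 11 without 1 array (3 without EOM mdx 5, EOM control 2 or EOM control 3, 11 without EOM mdx 3). The number of arrays and the dimness of Csrp2 and Ankrd1 in controls limit these values.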
